A study of Mus musculus with 27 samples.

Results

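Ch25h, Cyp7b1, Hsd3b7, Gpr183, Enpp2 and Lpar1 were followed through all 27 libraries of the series, 6 genes of 54446 in the count tables, chosen by name because they make, break down or sense 2 kinds of lipid guidance signal. The series profiled sorted cells of NOD mice, an inbred strain that develops autoimmune diabetes, at 12 weeks of age. TG+ mice (13 libraries) carry Ins2-CCL21, a transgene that puts the chemokine CCL21 under an insulin promoter, which is active in pancreatic beta cells. TG- mice (14 libraries) are NOD/ShiLtJ without it, so the NOD background is shared by all groups. The sort labels name islet leukocytes, called CD45 (4 TG+, 4 TG-), gp38-high stroma of islets (2 TG+, 2 TG-), gp38-low stroma of islets (4 TG+, 4 TG-) and fibroblastic reticular cells (FRCs) of skin draining lymph nodes (3 TG+, 4 TG-). CD45 is the leukocyte surface protein encoded by Ptprc, and gp38 is podoplanin, a surface protein of lymphoid stroma. Nothing in the labels tells whether replicates were separate animals, pools or aliquots, so p-values measure the spread between these libraries, which may be technical.

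7-alpha,25-dihydroxycholesterol is the ligand of the receptor GPR183 (EBI2), which guides B cells, T cells and dendritic cells to the edges of follicles and T cell zones in lymphoid organs. CH25H adds the first hydroxyl group to cholesterol, CYP7B1 adds the next and so completes the ligand, and HSD3B7 degrades it. Lymphoid stromal cells are a known source of the ligand. ENPP2 (autotaxin) is a secreted enzyme that makes lysophosphatidic acid (LPA) from lysophosphatidylcholine, and LPAR1 is one of the receptors for LPA. Autotaxin of high endothelial venules and of reticular cells is known to promote lymphocyte movement in lymph nodes.

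Libraries were read by 4 classes set by measured marker genes and not by their labels, in CPM (reads of a gene over all reads assigned to genes, scaled to a common total). The classes were Ptprc-high (Ptprc above 100 CPM, 8 libraries, 3 TG+ and 5 TG-), Ccl21a-high (Ccl21a above 1000 CPM, 7 libraries, 3 TG+ and 4 TG-), Msln-high (Msln above 100 CPM, 4 libraries, 1 TG+ and 3 TG-) and the remaining 8 libraries (6 TG+, 2 TG-). No library lay near a threshold apart from 1 for Ptprc. The lowest level above the threshold and the highest below it were 169.2 and 5.79 CPM for Ptprc, 2162 and 5.28 CPM for Ccl21a, and 573 and 2.52 CPM for Msln, and 0 libraries passed more than 1 threshold. In 14 of 27 libraries the class went against the sort label, since CD45 libraries lacked Ptprc or stromal libraries had it. The Ptprc-high class held 5 libraries labelled LN FRC and 1 library of each islet label, and the Ccl21a-high class held 4 labelled CD45 and 3 labelled gp38-low. Groups are therefore called by their labels only as "the libraries labelled X". Each library held 8517844 to 25194443 reads assigned to genes, and a count of 0 allows up to 3 reads, or 0.119 to 0.352 CPM, which covers counting error only.

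Marker lists described the classes further. The leukocyte, FRC and mesothelial lists include the class gene, so those separations were partly fixed by the rule. Ccl21a had 2162 to 5685 CPM in Ccl21a-high, Msln 572.9 to 829.9 CPM in Msln-high and Ptprc 169.2 to 678.5 CPM in Ptprc-high libraries. In the Ptprc-high class, 6 leukocyte markers summed to 3400 to 4334 CPM, against at most 25.9 CPM in any other library, with B cell, T cell, macrophage and dendritic cell markers all present. Markers of FRCs and follicular stroma (9 genes) summed to 3450 to 7420 CPM in Ccl21a-high libraries, against at most 276.8 CPM elsewhere. Of these, 7 (with Ccl21a itself) had their Ccl21a-high range above all other libraries, as did 4.46% of all 18198 genes with enough reads. Ltbr overlapped other classes, and Cr2 had 54.22 to 111.7 CPM in Ptprc-high libraries, against 7.595 to 34.04 CPM in Ccl21a-high. In Ccl21a-high libraries 8 pericyte and smooth muscle markers summed to 3245 to 4678 CPM, against at most 405.9 CPM elsewhere. Of these, 5 (Rgs5, Notch3, Acta2, Tagln and Des) had ranges above all other libraries, against the same 4.46%. Mcam and Myh11 overlapped other classes. Cspg4 went the other way, with 5.214 to 12.61 CPM, against 35.25 to 71.44 CPM in the remaining libraries. Ccl21a-high libraries thus carried most of the listed reticular and mural markers. Mesothelial markers (8 genes) summed to 5001 to 6373 CPM in Msln-high libraries, against at most 723 CPM elsewhere. The remaining libraries led in adventitial fibroblast markers (8 genes, 7794 to 10580 CPM, against at most 3144 CPM elsewhere). Acinar markers (8 genes) summed to 109.8 to 12060 CPM in the remaining, 320.8 to 4249 CPM in Ptprc-high, 112.3 to 662.2 CPM in Msln-high and at most 2.84 CPM in Ccl21a-high libraries. Duct markers (7 genes) summed to 244.5 to 3056 CPM in the remaining and 551.4 to 3051 CPM in Msln-high libraries, against at most 48.6 CPM elsewhere.

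The start regions of Ch25h and Gpr183 are shown because one makes the oxysterol and the other is its receptor, and their levels followed opposite classes. Each is the 250 bases before the start in RefSeq, 5′ to 3′ on the gene's own strand, on GRCm38.p6, with motif matches in capitals. For both genes the region reaches into the gene bounds given below, which come from another annotation. Motif distances count from the RefSeq start.
Ch25h, chr19:34475149-34475398, minus strand: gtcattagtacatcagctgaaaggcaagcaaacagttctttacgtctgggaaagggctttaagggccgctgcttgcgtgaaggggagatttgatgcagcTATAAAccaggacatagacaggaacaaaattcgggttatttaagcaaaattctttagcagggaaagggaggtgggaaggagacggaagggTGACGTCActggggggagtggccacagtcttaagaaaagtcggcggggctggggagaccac
Gpr183, chr14:121965194-121965443, minus strand: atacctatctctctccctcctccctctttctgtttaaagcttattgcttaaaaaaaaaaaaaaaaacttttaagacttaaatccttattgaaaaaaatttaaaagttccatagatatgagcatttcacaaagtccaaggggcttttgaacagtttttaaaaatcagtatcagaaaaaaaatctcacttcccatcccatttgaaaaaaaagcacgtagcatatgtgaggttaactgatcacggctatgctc

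The capitals in the Ch25h region mark TGACGTCA, the cAMP response element, which begins 61 bases before the start and occurs in 1.55% of 32851 such regions, and the TATA box letters TATAAA, 151 bases before it, which occur in 12.4%. The Gpr183 region held none of the 5 motifs searched on both strands (these 2, the CCAAT box, the GC box GGGCGG and the NF-kB site). RefSeq's table matched 4 of the 6 genes, and Cyp7b1 and Enpp2 had no entry. A match is a description of letters, not of a bound site.

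Ch25h, the enzyme that starts the oxysterol, was highest in the Ccl21a-high class. It is a single-exon gene on chromosome 19 (GRCm38, 34473778 to 34475164, minus strand). The lowest, median and highest levels were 10.2, 14.7 and 19.15 CPM in Ccl21a-high libraries, 1.05, 2.46 and 4.32 CPM in Msln-high, 0.781, 1.66 and 2.01 CPM in the remaining and 0.435, 1.33 and 2.49 CPM in Ptprc-high libraries. Every Ccl21a-high library lay above every other library, and the other 3 classes overlapped. The median was 5.98 times that of Msln-high, 8.85 times that of the remaining and 11.1 times that of Ptprc-high libraries. A class cut from measured markers gives no test, so these are descriptions. All 6 members passed a minimum of 10 reads in 4 or more libraries, Gpr183 through the 8 Ptprc-high libraries alone. Of the 18198 genes past that minimum, 4.46% were likewise higher in all Ccl21a-high libraries than in all others.

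Cyp7b1, which completes the ligand, did not share that pattern. It lies on chromosome 3 (18071950 to 18243338, minus strand). Its lowest, median and highest levels were 4.94, 7.34 and 11.5 CPM in Ccl21a-high, 6.32, 8.54 and 11.04 CPM in Msln-high, 4.51, 5.31 and 9.11 CPM in the remaining and 0, 0.223 and 1.22 CPM in Ptprc-high libraries. The 3 classes without Ptprc overlapped one another, and all 19 of their libraries lay above all 8 Ptprc-high libraries, as was so for 17.7% of the 18198 genes. Per kilobase of exon, Ch25h exceeded Cyp7b1 2.20 to 5.55-fold in Ccl21a-high libraries, but was 0.260 to 0.611 of it in Msln-high and 0.218 to 0.602 of it in the remaining libraries. Among the 3 classes without Ptprc, the Ccl21a-high libraries thus stood apart in Ch25h and not in Cyp7b1.

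Hsd3b7, the enzyme that breaks the ligand down, could not be measured from these counts. It lies on chromosome 7 (127800604 to 127803802, plus strand). The annotated gene Gm49388 runs over it on the same strand and shares 93.9% of its longest coding transcript (1717 of 1828 bases, 6 of 7 exons), so most of its reads count as ambiguous and were dropped. In all 27 libraries it kept 525 reads on its strand and 0 reads in the unstranded column, and Gm49388 had 0. The reads left gave 0.218 to 1.64 CPM in Ptprc-high, 0.768 to 1.55 CPM in Ccl21a-high, 1.41 to 2.44 CPM in Msln-high and 0.781 to 2.42 CPM in the remaining libraries, with overlap between every pair of classes. These values rest on the unshared part of the gene alone and give no level of its expression.

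Gpr183, the receptor, was high in the leukocyte libraries and near 0 in all others. It lies on chromosome 14 (121952551 to 121965195, minus strand). The 8 Ptprc-high libraries had 75.8 to 112.9 CPM (median 96.3 CPM, 646 to 1825 reads), against 0 to 0.310 CPM in Ccl21a-high, 0 to 0.211 CPM in Msln-high and 0 to 0.137 CPM in the remaining libraries. Those 19 libraries held 0 to 6 reads each, and 11.8% of the 18198 genes were likewise higher in all Ptprc-high libraries than in all others. The class that was highest in the gene for the first synthesis step therefore carried the receptor at up to 6 reads per library.

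Within the Ptprc-high class, Gpr183 varied 1.49-fold while Ptprc varied 4.01-fold. The 3 libraries with the highest Gpr183, labelled gp38-high TG- replicate 2, LN FRC TG+ replicate 2 and CD45 TG- replicate 4, had 112.9, 111.2 and 110.7 CPM. In those 3 libraries B cell markers summed to 2490, 2660 and 2888 CPM and macrophage markers to 2225, 899.7 and 840.9 CPM. The 2 libraries with the lowest, labelled LN FRC TG+ replicate 3 and LN FRC TG- replicate 3, had 75.8 and 78.8 CPM, with B cell sums of 1263 and 1525 CPM and macrophage sums of 5201 and 3547 CPM. The 3 libraries between, labelled LN FRC TG- replicate 4, gp38-low TG- replicate 1 and LN FRC TG+ replicate 4, had 97.8, 94.8 and 93.55 CPM, with B cell sums of 2124, 1433 and 1908 CPM and macrophage sums of 3153, 3812 and 1411 CPM. Gpr183 did not follow either sum throughout, since the gp38-low library had more Gpr183 than LN FRC TG- replicate 3 with a lower B cell and a higher macrophage sum. The 2 libraries lowest in Gpr183 had the highest Enpp2 and the highest Ch25h of the class, 7.51 and 6.99 CPM for Enpp2 and 2.23 and 2.49 CPM for Ch25h. In bulk samples a change in the share of a cell type and a change in RNA per cell cannot be told apart, and the part of the marker genes in these values was not tested.

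**Figure D1:**
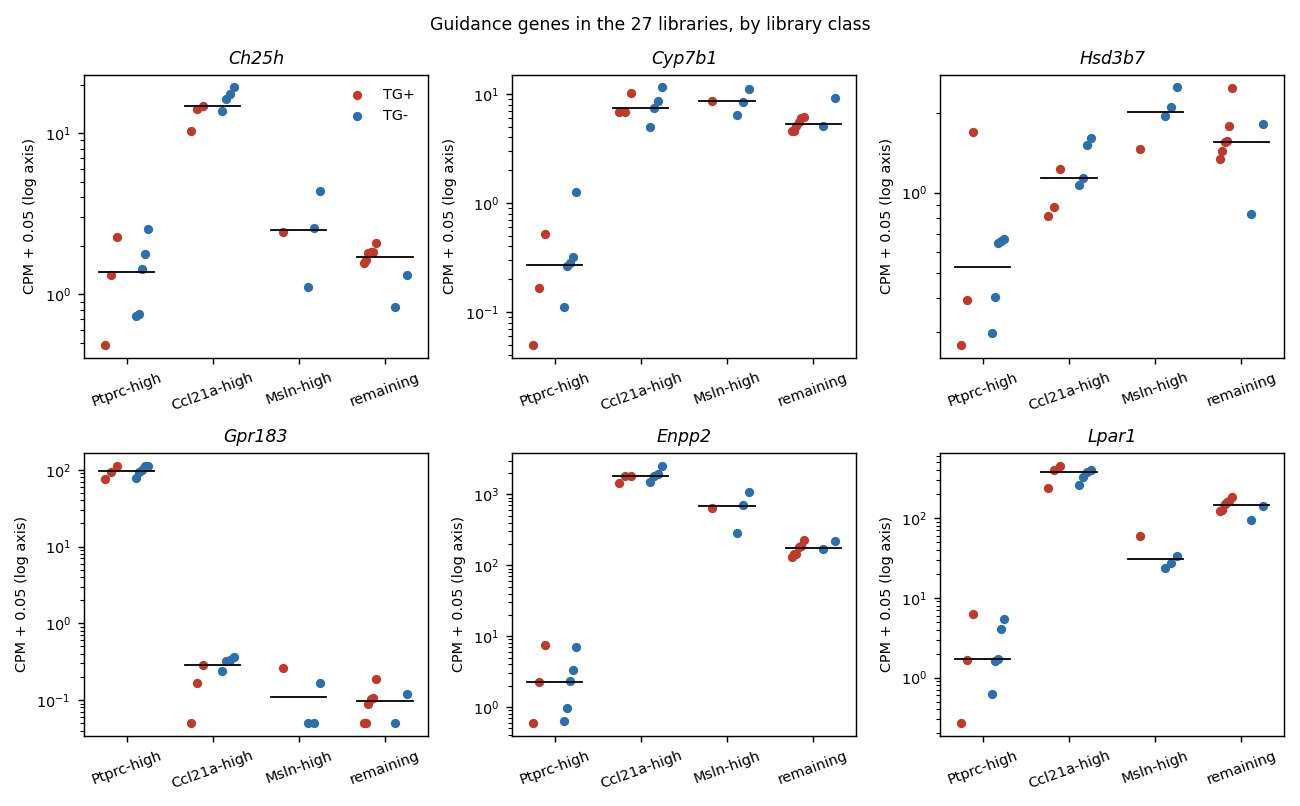
Level of each of the 6 genes (CPM + 0.05, log axis) in each of the 27 libraries, by library class, with TG+ in red to the left of TG- in blue and a black line at the class median. Ch25h, Enpp2 and Lpar1 peak in the Ccl21a-high libraries, Gpr183 has 75.8 to 112.9 CPM in the 8 Ptprc-high libraries and at most 0.310 CPM in the rest, and Cyp7b1 is lowest there.

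Of the oxysterol list (14 genes, 12 with enough reads), 5 genes had their highest median in Msln-high, 3 in Ccl21a-high, 3 in the remaining and 1 in Ptprc-high libraries. The 5 include Hsd3b7, whose reads give no level of its expression. Hsd11b1, which interconverts glucocorticoids and also 7-oxygenated sterols, had 79.9 to 218.2 CPM in the remaining libraries and no more than 28.1 CPM in any other. Cyp27a1, which makes 27-hydroxycholesterol, had its highest median, 48.1 CPM, in the remaining libraries, whose range of 34.5 to 91.97 CPM overlapped that of the Ptprc-high class, 11.3 to 50.5 CPM. Cyp39a1, a 24-hydroxycholesterol 7-alpha-hydroxylase, had medians of 18.5 CPM in Msln-high, 18.4 CPM in the remaining, 8.32 CPM in Ccl21a-high and 1.66 CPM in Ptprc-high libraries. Lcat, which esterifies cholesterol in lipoproteins, had 4.94 to 7.53 CPM in Ccl21a-high libraries and at most 3.87 CPM elsewhere. Cyp7a1, the liver's bile acid enzyme, had 0 reads in every library. In all, 2 of the 12 genes (Ch25h and Lcat) had their Ccl21a-high range above all other libraries, against 4.46% of the 18198 genes.

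Of the sensors, the nuclear receptor gene Rora had medians of 146 CPM in the remaining, 93.99 CPM in Msln-high, 58.5 CPM in Ccl21a-high and 10.2 CPM in Ptprc-high libraries. The liver X receptors, which oxysterols activate, were read in every class, with Nr1h2 medians of 59.3 to 89.99 CPM. Of 8 listed LXR target genes, 3 had their Ccl21a-high range above all other libraries, against 4.46% of the 18198 genes. These were Apoe, a lipid carrier (10600 to 16120 CPM, against at most 2495 CPM), Abca1, a cholesterol exporter (444 to 774.9 CPM, against at most 443.1 CPM), and Smpdl3a, a phosphodiesterase (113.8 to 152.9 CPM, against at most 85.04 CPM). Abcg1, also a cholesterol exporter, went the other way, at 70.2 to 114 CPM in Ptprc-high libraries and 7.09 to 10.5 CPM in Ccl21a-high libraries.

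Among the 20 sterol synthesis genes, Srebf2, the main transcription factor of the pathway, had 247.1 to 505.5 CPM in Ptprc-high libraries and at most 204.2 CPM elsewhere, a separation seen in 11.8% of the 18198 genes. Hmgcs1, the synthase of an early step, had 78.5 to 96.8 CPM in Msln-high libraries and at most 64.3 CPM elsewhere. Of the 18198 genes, 9.48% were likewise higher in all Msln-high libraries than in all others.

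**Figure D2:**
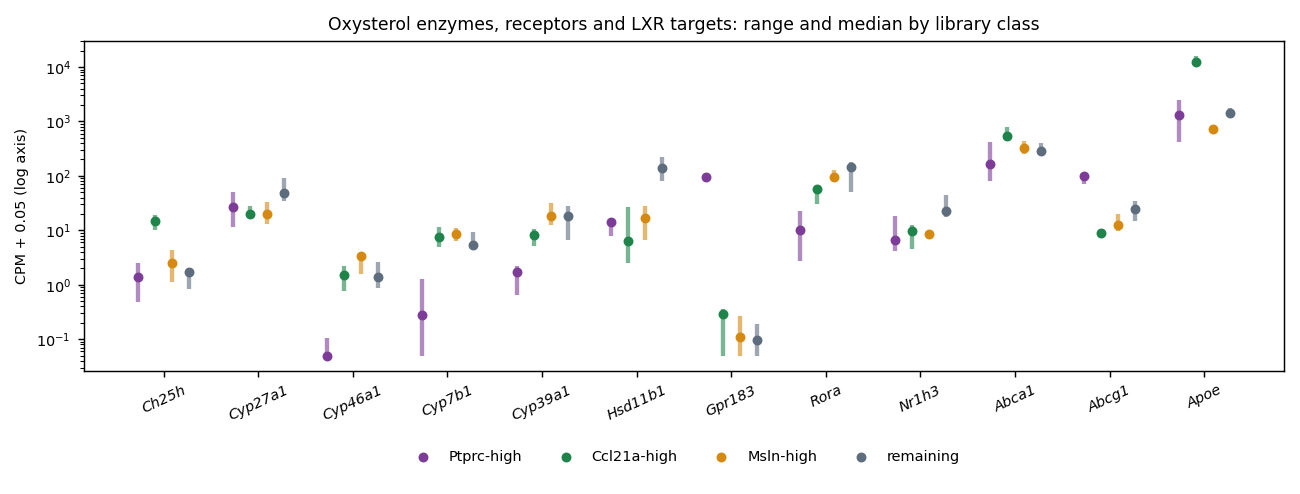
Oxysterol enzymes, receptors and LXR target genes by library class, as the range over libraries (bar) and the median (point) on a log axis of CPM + 0.05. Ch25h, Abca1 and Apoe are highest in Ccl21a-high libraries, and Gpr183 and Abcg1 in Ptprc-high libraries.

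Enpp2, the gene of autotaxin, separated all 4 classes. It lies on chromosome 15 (54838901 to 54952892, minus strand). Its lowest, median and highest levels were 1432, 1821 and 2540 CPM in Ccl21a-high, 288.4, 675.5 and 1078 CPM in Msln-high, 130.1, 173.4 and 224.8 CPM in the remaining and 0.544, 2.23 and 7.51 CPM in Ptprc-high libraries. No range overlapped another. Of the 18198 genes, 4.46% were likewise higher in all Ccl21a-high libraries than in all others. The share of genes with all 4 classes apart was not counted. The Ccl21a-high median was 2.70 times that of Msln-high, 10.5 times that of the remaining and 817.7 times that of Ptprc-high libraries. Per kilobase of exon the Ccl21a-high median of Enpp2 was 315.1 CPM, the highest of the 13 LPA enzymes with enough reads, ahead of Plpp1 at 67.5 CPM.

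Lpar1 also separated all 4 classes, in another order. It lies on chromosome 4 (58435255 to 58553898, minus strand). Its lowest, median and highest levels were 240.2, 382 and 455 CPM in Ccl21a-high, 23.6, 30.7 and 60.4 CPM in Msln-high, 94.8, 146 and 186.7 CPM in the remaining and 0.218, 1.64 and 6.22 CPM in Ptprc-high libraries. Enzyme and receptor transcripts were thus both above all other libraries in the Ccl21a-high class, as were 4.46% of the 18198 genes. Their ratio was not constant, since per kilobase Enpp2 was 7.99 to 23.7 times Lpar1 in Msln-high libraries, 2.98 to 4.75 times in Ccl21a-high and 0.667 to 1.31 times in the remaining libraries.

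Over the 6 members and 6 pairs of classes, 21 of 36 ranges did not overlap, against 40.1% of the gene and class pairs over the 18198 genes. Enpp2 and Lpar1 gave 6 pairs each, and Ch25h, Cyp7b1 and Gpr183 gave 3 each.

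The phosphatases that remove LPA did not share 1 pattern. Plpp3, a membrane phosphatase that dephosphorylates LPA, had 556.4 to 1292 CPM in the remaining libraries, against 103.5 to 241.7 CPM in Ccl21a-high, 91.3 to 192.5 CPM in Msln-high and 3.91 to 11.2 CPM in Ptprc-high libraries. Per kilobase, Enpp2 was 4.06 to 13.4 times Plpp3 in Ccl21a-high libraries, 1.73 to 3.42 times in Msln-high and 0.0784 to 0.145 times in the remaining libraries, with no overlap between these classes. Among the 18198 genes, 2.82% were, like Plpp3, higher in all remaining libraries than in all others. The medians of Plpp1, a phosphatase of the same family, had the class order of Enpp2. They were 118.1 CPM in Ccl21a-high, 98.4 CPM in Msln-high, 59.9 CPM in the remaining and 5.32 CPM in Ptprc-high libraries. Unlike those of Enpp2, its ranges overlapped. Its Msln-high range, 67.75 to 124.3 CPM, met those of Ccl21a-high (92.93 to 140.7 CPM) and of the remaining libraries (46.36 to 70.23 CPM). Pla1a, a phospholipase that yields 2-acyl lysophosphatidylserine, had 163.4 to 614.1 CPM in the remaining libraries and at most 38.5 CPM elsewhere.

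**Figure D3:**
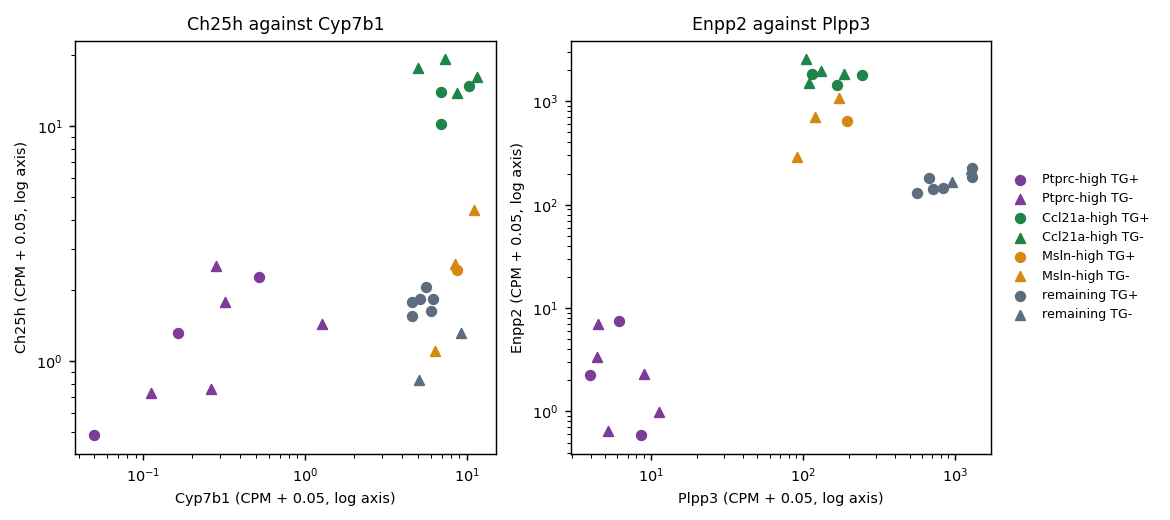
Ch25h against Cyp7b1 (left) and Enpp2 against Plpp3 (right), each point 1 library in CPM + 0.05 on log axes, coloured by class, with circles for TG+ and triangles for TG-. Ccl21a-high libraries lie highest on both vertical axes, and the remaining libraries have the most Plpp3, 556.4 to 1292 CPM.

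Each class had 1 LPA receptor above all other libraries, Lpar1 in Ccl21a-high, Lpar2 in Msln-high, Lpar4 in the remaining and Lpar5 in Ptprc-high libraries. Of the 18198 genes, 4.46%, 9.48%, 2.82% and 11.8% were likewise above all other libraries in these classes, in that order. Lpar2 had 32.01 to 36.4 CPM in Msln-high libraries and at most 21.1 CPM elsewhere. Lpar4 had 11.5 to 27.6 CPM in the remaining libraries and at most 6.97 CPM elsewhere. Lpar5 had 5.64 to 13.3 CPM in Ptprc-high libraries and at most 1.17 CPM elsewhere, and per kilobase it was the highest receptor of that class, with a median of 5.25 CPM. Lpar6 overlapped in all classes, with medians of 8.93 to 13.5 CPM. Lpar3 had its highest median, 1.305 CPM, in Ptprc-high libraries, with overlap of the Ccl21a-high class. The Ptprc-high libraries had 0.218 to 6.22 CPM of Lpar1 (median 1.64 CPM). They thus held 3 other LPA receptor transcripts at higher medians, 7.95 CPM (Lpar5), 16.97 CPM (Lpar2) and 12.3 CPM (Lpar6).

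**Figure D4:**
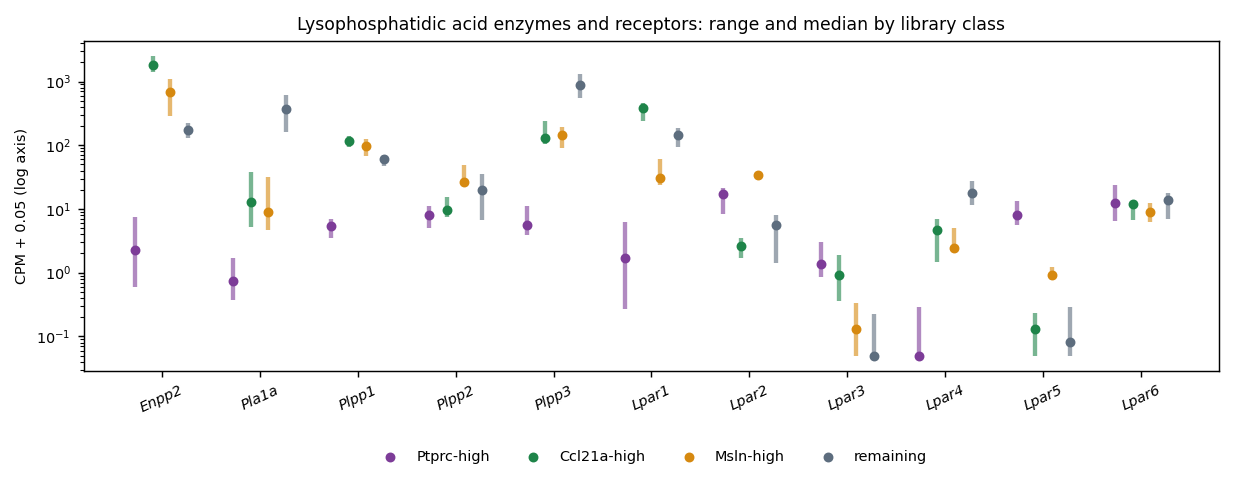
LPA enzymes and receptors by library class, as the range over libraries (bar) and the median (point) on a log axis of CPM + 0.05. Enpp2 and Lpar1 are highest in Ccl21a-high, Plpp3, Pla1a and Lpar4 in the remaining, Lpar2 in Msln-high and Lpar5 in Ptprc-high libraries.

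Genes with the most similar pattern were the 3 with the smallest mean absolute difference of centred log2 CPM over the 27 libraries. For Ch25h these were C4a, Gem and Irak1bp1 (0.39, 0.46 and 0.46, against a median of 1.37 over 10785 genes). For Cyp7b1 they were B3gnt9, Rcn1 and Enpp5 (0.39, 0.39 and 0.40). For Gpr183 they were Inpp5d, Itgal and Fermt3 (0.47, 0.51 and 0.54), for Enpp2 Tmtc1, Dclk1 and Chrdl1 (0.50, 0.63 and 0.64), and for Lpar1 Tspan18, Flrt3 and Nav3 (0.47, 0.50 and 0.52). For the reads left to Hsd3b7 they were Pcyt1a, Ccnyl1 and Parp12 (0.29, 0.30 and 0.31, against a median of 0.72). C4a, a complement component, had a median of 87.4 CPM in Ccl21a-high libraries, 16.99 CPM in Msln-high, 9.78 CPM in the remaining and 6.24 CPM in Ptprc-high libraries.

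Whether the CCL21 transgene changed these genes was asked first with the class as a covariate, in all 27 libraries. No member passed the test. The TG+ minus TG- log2 difference was -0.10 ± 0.24 (SE) for Ch25h, -0.33 ± 0.25 for Cyp7b1, -0.06 ± 0.24 for Gpr183, -0.14 ± 0.29 for Enpp2, 0.25 ± 0.26 for Lpar1 and -0.06 ± 0.26 for the reads left to Hsd3b7. Adjusted p-values ran from 0.618 (Cyp7b1) to 0.956 (Hsd3b7) with edgeR's quasi-likelihood test, Benjamini-Hochberg adjusted over 20045 genes. edgeR called 0 genes (0%) in this fit, as did DESeq2 and limma-voom, and 1875 genes had an unadjusted edgeR p below 0.05. The median difference was -0.21 over the 8 LXR target genes and 0.18 over the 6 LPA receptors, against 0.01 over all genes. In both lists 0 genes were called. In a fit of the remaining libraries alone, 35.2% of all genes were called. There the LXR target genes ran from -1.18 (Nr1h3) to -0.06 (Srebf1), and the part of that class in the median was not tested. In the other 5 lists 0 genes were called, with medians of -0.05 to 0.09.

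Within the Ccl21a-high class, Ch25h had 10.2, 13.95 and 14.7 CPM in TG+ libraries, against 13.7, 16.1, 17.55 and 19.15 CPM in TG- libraries. The ranges overlapped between 13.7 and 14.7 CPM, and 2.37% of the 18198 genes had ranges apart. The log2 difference was -0.43 ± 0.21 in an edgeR fit of this class alone, chosen after the data were seen, with an adjusted p of 0.9999 and 0 genes called, 150 of them at an unadjusted p under 0.05. Enpp2 had 1432, 1795 and 1827 CPM in TG+ libraries, against 1514, 1821, 1966 and 2540 CPM in TG- libraries, and Lpar1 had 240.2, 403.8 and 455 CPM, against 262.9, 326.2, 382 and 396.5 CPM. Both overlapped.

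Within the Ptprc-high class, Gpr183 had 75.8, 93.55 and 111.2 CPM in TG+ libraries, against 78.8, 94.8, 97.8, 110.7 and 112.9 CPM in TG- libraries. The ranges nearly coincided, and 2.71% of the 18198 genes had ranges apart. The TG+ libraries were all labelled LN FRC. The TG- libraries were labelled LN FRC (replicates 3 and 4), CD45 (replicate 4), gp38-high (replicate 2) and gp38-low (replicate 1). Genotype and label thus differed together here, and the part of the label was not tested. The log2 difference was 0.07 ± 0.23, and edgeR called 0 genes in this class, with 137 at an unadjusted p under 0.05.

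In the remaining libraries TG+ and TG- differed across many genes. edgeR called 5472 of 15535 genes (35.2%), and 38% of the 18198 genes had ranges apart. Cyp7b1 had 4.51, 5.31 and 9.11 CPM as lowest, median and highest of the class, with 4.51 to 6.17 CPM in the 6 TG+ libraries, against 5.02 and 9.11 CPM in the 2 TG- libraries. Its log2 difference was -0.71 ± 0.23 with an adjusted p of 0.0357 in edgeR, although the CPM ranges overlapped. Without the library labelled LN FRC TG- replicate 1 it was -0.32 ± 0.28 (adjusted p = 0.399; 27.4% of genes called), and without that labelled gp38-low TG- replicate 2 it was -1.004 ± 0.24 (adjusted p = 0.209), where edgeR called 0 genes and 3493 had an unadjusted p under 0.05. Ch25h had 1.51 to 2.01 CPM in TG+ libraries, against 0.781 and 1.27 CPM in TG- libraries, without overlap, from 7 to 40 reads, and its log2 difference of 0.44 ± 0.34 was not called (adjusted p = 0.321). Beside these values, the TG+ libraries had 33.6% to 42.9% unmapped reads, against 52.4% and 67.7% in the TG- libraries, and Malat1, a nuclear RNA, had 1522 to 5928 CPM, against 701.1 and 854 CPM. Acinar markers summed to 109.8 to 12060 CPM in TG+ libraries, against 115.4 and 344.7 CPM in TG- libraries. The 6 TG+ libraries all carried islet labels, while the 2 TG- libraries were labelled LN FRC and gp38-low. The part of these values and of the label in the differences was not tested. Msln-high libraries, with 1 TG+ library, were not fitted alone.

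**Figure D5:**
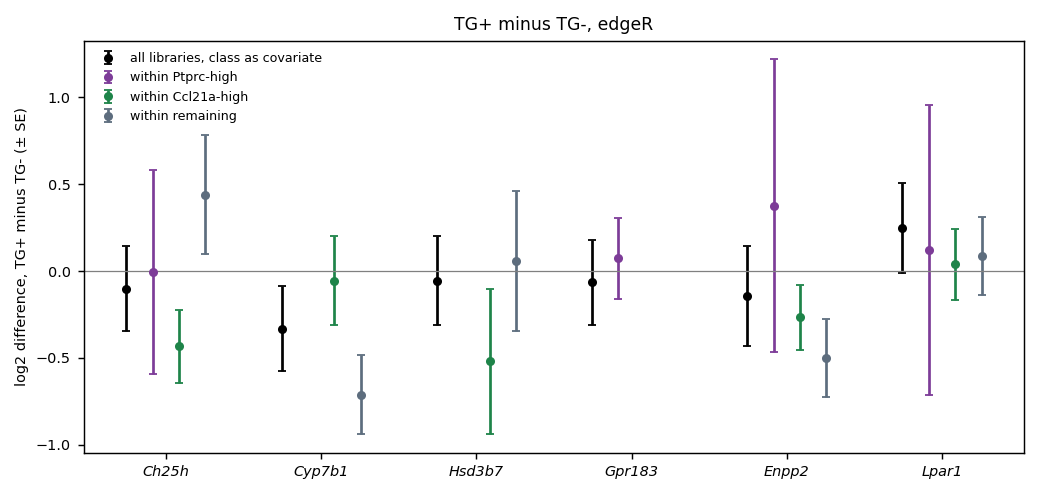
TG+ minus TG- log2 difference of each gene (edgeR, bars ± SE) over all 27 libraries with the class as covariate, and within the Ptprc-high (3 TG+, 5 TG-), Ccl21a-high (3 TG+, 4 TG-) and remaining (6 TG+, 2 TG-) classes alone. Points are missing where a gene did not pass the read filter, and among those shown Cyp7b1 in the remaining libraries, -0.71 ± 0.23, was the 1 call.

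The comparisons by sort label set libraries of different classes against each other. In the libraries labelled LN FRC, Enpp2 had 0.544, 7.51 and 2.19 CPM in TG+, against 220.9, 1078, 6.99 and 0.595 CPM in TG-. The TG+ libraries were all Ptprc-high, and the 2 high TG- values came from a remaining and a Msln-high library. The log2 difference was -6.29 ± 2.504 with an adjusted p of 0.696 in edgeR. DESeq2 called it at -6.28 ± 1.66 (adjusted p = 0.00816), limma-voom gave -2.20 ± 1.83 (adjusted p = 0.695) and edgeR with the replicate block gave -0.77 ± 2.96 (adjusted p = 1). In those labelled gp38-high, Gpr183 had 0 and 0.0397 CPM in TG+, against 0 and 112.9 CPM in TG-, with a fitted log2 difference of -11.06 ± 5.17 (adjusted p = 0.663). Without TG- replicate 2, the 1 Ptprc-high library of that label, it was 1.88 ± 5.07. In those labelled CD45, Ch25h had 2.39, 1.79, 14.7 and 1.74 CPM in TG+, against 13.7, 16.1, 19.15 and 0.708 CPM in TG-, with a log2 difference of -1.37 ± 1.04 (adjusted p = 0.661). limma-voom called it at -3.05 ± 0.35 (adjusted p = 0.0005996), and in edgeR it was -2.87 ± 0.94 (adjusted p = 0.167) without TG+ replicate 3, the 1 Ccl21a-high library of its group. In those labelled gp38-low, Lpar1 had 403.8, 122.1, 240.2 and 186.7 CPM in TG+, against 5.39, 94.8, 262.9 and 27.6 CPM in TG-, with a log2 difference of 1.08 ± 1.06 (adjusted p = 0.9995), which was 0.68 without TG- replicate 1 and 2.37 without TG- replicate 3. In all 4 label groups the high and low values followed the class of the library. Gpr183 was not tested in the CD45 or gp38-low fits, nor Cyp7b1 in the LN FRC fit, because they did not pass the read filter.

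Between sort labels, the members were set against each other in the 19 libraries labelled as stroma. For libraries labelled gp38-low minus those labelled LN FRC, log2 differences were 3.82 ± 1.10 for Lpar1, 4.55 ± 1.56 for Enpp2, 2.398 ± 0.93 for Cyp7b1, 1.80 ± 0.71 for Ch25h, 0.27 ± 0.50 for the reads of Hsd3b7 and -5.59 ± 1.99 for Gpr183. Adjusted p-values ran from 0.0943 to 0.698 in edgeR, and 0 of 18396 genes (0%) were called. Without the library labelled gp38-low TG- replicate 1, edgeR called Lpar1 (4.02 ± 1.04, adjusted p = 0.0214), Enpp2 (4.75 ± 1.47, adjusted p = 0.0314), Ch25h (1.97 ± 0.70, adjusted p = 0.0478) and Gpr183 (-9.56 ± 2.10, adjusted p = 0.0194), among 29.3% of all genes. Without LN FRC TG- replicate 1 it called Lpar1 (4.84 ± 1.08, adjusted p = 0.0489), among 7.49%. Ch25h was 0.76 ± 0.52 without gp38-low TG- replicate 3. For gp38-high minus gp38-low the largest difference was -2.71 ± 0.91 for Ch25h (adjusted p = 0.9999), or -1.67 without gp38-low TG- replicate 3. For gp38-high minus LN FRC it was -5.86 ± 2.79 for Gpr183 (adjusted p = 0.290), or -12.22 without gp38-high TG- replicate 2. For the difference of the TG effect between gp38-low and LN FRC it was -8.90 ± 3.81 for Gpr183 (adjusted p = 0.369), or -0.97 ± 3.92 without gp38-low TG- replicate 1. The label groups held 5 Ptprc-high libraries of 7 for LN FRC and 1 of 8 for gp38-low, and the class and the label cannot be told apart in these fits.

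edgeR called 0 genes in each comparison by label, with 273 to 6639 genes at an unadjusted p under 0.05. DESeq2 called 425 genes for CD45, 1 for gp38-low, 40 for gp38-high, 542 for LN FRC, 4748 for gp38-low minus LN FRC, 139 for gp38-high minus gp38-low, 721 for gp38-high minus LN FRC and 639 for the difference of TG effects. limma-voom with quality weights called 6184 genes for CD45 and 8651 for gp38-low minus LN FRC, and 0 in the other comparisons. In gp38-low minus LN FRC, DESeq2 (25.8% of all genes called) and limma-voom (47%) both called Cyp7b1, Gpr183, Enpp2 and Lpar1 in the direction edgeR gave, and DESeq2 also called Ch25h (adjusted p = 0.0337). For CD45, where limma-voom called 41.6% of all genes, it called Ch25h, Enpp2 (-3.56 ± 0.56, adjusted p = 0.00155), Lpar1 (-1.53 ± 0.40, adjusted p = 0.0152) and Cyp7b1 (-0.88 ± 0.25, adjusted p = 0.0219), and DESeq2 called 0 of these 4. For LN FRC, DESeq2 called Enpp2 among 3.92% of all genes, and limma-voom called 0 members.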

How the data were processed

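The authors deposited 1 table of raw read counts per library, laid out as STAR writes gene counts, with unstranded, forward and reverse columns. Per the submitters' processing notes, bcl2fastq 2.17, Trim Galore 0.4.3, STAR 2.5.2a and mm10 were used, and per the labels' protocols cells were sorted into TRIzol and libraries made with a KAPA kit with ribosomal RNA removal. Which gene annotation they counted on is not stated in the labels. The reverse-strand counts were used, since forward counts were 6.67% to 15.3% of both strands. The first 4 lines, which name no gene, were left out (unmapped reads took 19.4% to 67.7%). Of 54446 identifiers, 54409 matched GENCODE M21 symbols. CPM used reads in genes as the total. Tests were edgeR 4.0.16 quasi-likelihood (R 4.3.3, TMM, filterByExpr, Benjamini-Hochberg at 0.05), with DESeq2 1.42.0 and limma 3.58.1 voom among the alternatives. Only the edgeR fit was tested on simulated counts. Those counts held no differences between library classes, so they cannot show how the fits behave where classes are mixed. Each edgeR SE is the absolute log2 difference over the square root of F. Those of DESeq2 and limma-voom come from their own fits. Named genes were the members, the genes of 7 pathway lists past a test or highest per kilobase in a class, and the 3 likest per member. Other listed genes were named after their values were seen. Members and lists were chosen with earlier results of these data known. The fitted classes and the motifs were chosen in the same way.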

Additional observations from a re-analysis of the deposited data

Results flagged for a closer look

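In libraries grouped by label, 4 values of 30 member and group combinations stood apart from the rest of their group by a gap test, where chance gives about 1 in 20. Ch25h was 14.7 CPM in CD45 TG+ replicate 3 (by label), against 1.74 to 2.39 CPM in the other 3 of its group. It was 17.55 CPM in that labelled gp38-low TG- replicate 3, against 0.781 to 2.53 CPM in the others. Both libraries were the only Ccl21a-high ones of their groups. Gpr183 was 110.7 CPM in CD45 TG- replicate 4 (by label), against 0.192 to 0.310 CPM in the others, and 94.8 CPM in that labelled gp38-low TG- replicate 1, against 0 to 0.274 CPM. Both were the only Ptprc-high libraries of their groups.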

How the results depend on the processing

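Of 1528 values recomputed for 53 results, 1469 counted as unchanged. Many of these were fixed in advance, since leaving out a library cannot move the median of a class it is not in. The share therefore does not measure how stable the results are. Log2 differences had to keep their direction and side of the threshold, and medians to stay within the replicate spread. Counts of calls and of class pairs apart had to stay within a set fold of the main count. The count of 21 class pairs apart was 20 with TMM scaling, 22 with unstranded counts, 16 with thresholds doubled, which moved 1 library to another class, and 21 to 24 with 1 library left out. Calls rose from 0 with DESeq2 to 425, 1, 40, 542, 4748, 139, 721 and 639 in the 8 comparisons by label, and with limma-voom to 6184 for CD45 and 8651 for gp38-low minus LN FRC. With 1 library left out, calls ranged from 0 to 519 for CD45 (519 without TG+ replicate 3) and from 0 to 5403 for gp38-low minus LN FRC (5403 without gp38-low TG- replicate 1, 1369 without LN FRC TG- replicate 1). Within the remaining libraries there were 5472 calls, 4532 without LN FRC TG- replicate 1 and 0 without gp38-low TG- replicate 2. Signs reversed for uncalled differences, and the cause was not tested. In the fit with class, Gpr183 was 0.0011 with DESeq2 and 0.073 within Ptprc-high, Enpp2 0.38 within Ptprc-high, and within the remaining libraries Ch25h 0.44 and Hsd3b7 0.060. There, Ch25h was 0.22 and Lpar1 -0.10 without gp38-low TG- replicate 2, and Ch25h 0.75 and Hsd3b7 0.68 without LN FRC TG- replicate 1. With 1 library left out, the fit with class gave -0.35 to 0.017 for Hsd3b7 and -0.20 to 0.074 for Gpr183, and the gp38-high effect on Gpr183 ran from -12.82 to 1.88. Unstranded counts gave Gpr183 medians of 0.731 CPM in Ccl21a-high, 0.772 CPM in Msln-high and 0.131 CPM in the remaining libraries, and Ch25h 11.6 CPM in Ccl21a-high. Same-numbered TG+ and TG- libraries correlated from -0.19 to 0.69 in their deviations from label group means. Those groups mix classes, so the check cannot show whether replicate numbers pair the samples. With the replicate block 0 genes were called in each comparison.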

Other observations

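Sphingosine 1-phosphate genes, 12 of which passed the read minimum, split by class in another lipid signal that guides lymphocytes out of tissues. S1pr3, a receptor of mural and stromal cells, had 539.3 to 756.1 CPM in Ccl21a-high libraries and at most 43.8 CPM elsewhere. Spns2, a sphingosine 1-phosphate exporter, had 289.3 to 531.9 CPM in Ccl21a-high, 200.8 to 226.4 CPM in Msln-high, 24.8 to 123.1 CPM in the remaining and 6.93 to 20.1 CPM in Ptprc-high libraries. Sphk1, a kinase that makes the lipid, had 42.95 to 83.9 CPM in Ccl21a-high libraries and at most 38.1 CPM elsewhere. The lymphocyte receptors S1pr1 and S1pr4 had 124.8 to 264.5 CPM and 61.6 to 113.6 CPM in Ptprc-high libraries, against at most 45.8 and 0.366 CPM elsewhere. In all, 3 of the 12 genes were above all other libraries in the Ccl21a-high class and 3 in the Ptprc-high class, against 4.46% and 11.8% of the 18198 genes. With the class as covariate, edgeR called 0 of the 12 between TG+ and TG- (median log2 difference 0.03, against 0.01 over all genes).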
